A study of Ovis aries with 14 samples.

Results

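The 6 genes described here belong to the hypothalamic system that drives reproduction, and they were followed across hypothalami of fetal sheep exposed to triclosan, an antibacterial compound used in soaps and plastics. They are GNRH1, TAC3, TAC1, NPVF, OPRK1 and INHBA, which is 6 of the 964 gene symbols on the array. Every probe carrying one of these names, or a name that matched it in the RefSeq gene table (assembly ARS-UI_Ramb_v3.0), was taken. That gave 11 of the array's 15008 probes. All 11 were well above background on at least 3 arrays, the scanner's own test of a spot against its local background.

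The hypothalami came from late-gestation fetuses at about 130 days of fetal age, and total RNA was measured on single-colour (Cy3) Agilent ovine arrays. In the direct arm, chronically catheterised fetuses received an intravenous infusion for 2 days of vehicle (4 arrays, called fetal vehicle) or of triclosan at 250 µg per day (4 arrays, fetal triclosan). In the indirect arm the mother was infused for 2 days with vehicle (maternal vehicle) or with triclosan (3 arrays, maternal triclosan; 100 µg/kg per day), and the fetal hypothalamus was again sampled. Of the 3 arrays deposited for maternal vehicle, the third equalled 0.6 times replicate 1 plus 0.4 times replicate 2 at all 15744 spots, so it was left out and that group had n = 2. The labels name no pregnancies, no sex of the fetuses and no way the hypothalamus was cut, so replicates may not be separate animals and p-values measure only the spread between these samples.

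GNRH1 encodes the precursor of gonadotropin-releasing hormone, which a small, scattered set of hypothalamic neurons releases in pulses to make the pituitary secrete luteinising and follicle-stimulating hormone. The neurons that set those pulses lie in the arcuate nucleus and make neurokinin B (from TAC3), kisspeptin and dynorphin; neurokinin B acts as the starting signal and dynorphin, through the kappa opioid receptor OPRK1, as the stopping signal. TAC1 encodes substance P and neurokinin A, tachykinins related to neurokinin B, and NPVF encodes RFamide-related peptides that act against gonadotropin release. INHBA encodes the beta A subunit shared by activin A and inhibin A, which raise and lower follicle-stimulating hormone respectively.

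The probes show which stretch of each message was read. One probe each is printed of 5 of the genes, 5′ to 3′, from the scanner files; those of TAC1 are not shown, since it was not checked whether they lie in coding or untranslated sequence. Capitals mark, for TAC3, the codons of the tachykinin tail shared by neurokinin B and its relatives (phenylalanine, any residue, glycine, leucine, methionine), and for OPRK1 the NPxxY motif of the last membrane-spanning helix of such receptors. For NPVF they mark the codons for arginine, phenylalanine and glycine, which end an RFamide peptide and supply its amide, and for INHBA the stop codon. For GNRH1 they mark the 58 bases shared by its pair of probes, which encode part of the GnRH-associated peptide downstream of the hormone itself.
GNRH1 probe 1: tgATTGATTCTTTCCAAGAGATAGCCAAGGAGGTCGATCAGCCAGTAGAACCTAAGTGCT
TAC3: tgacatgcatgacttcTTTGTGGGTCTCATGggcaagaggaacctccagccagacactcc
NPVF probe 1: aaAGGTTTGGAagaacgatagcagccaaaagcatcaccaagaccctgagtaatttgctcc
OPRK1 probe 1: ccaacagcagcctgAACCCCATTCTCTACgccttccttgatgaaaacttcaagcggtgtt
INHBA probe 1: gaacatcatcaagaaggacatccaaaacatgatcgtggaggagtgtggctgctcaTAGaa
The other probe of GNRH1 shared 58 of its 60 bases with the one printed, and those of NPVF, OPRK1 and INHBA shared 59, so the 2 probes of each of these genes are no independent check. Only the 2 probes of TAC1 lay apart in the message, sharing 0 end bases, and TAC3 had 1 probe. In what follows the brighter probe stands for its gene as probe 1, and the values are scaled log2 signals, that is log2 of the background-corrected signal minus the 75th percentile of the same array. A step of 1 is a doubling, and since probes differ in brightness the level of one gene is not set against that of another.

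On the whole array, median signals per array ran from 236 to 380, the share of spots above background from 83.3% to 90.1%, and no spot was saturated. Median signals before scaling were lower in fetal triclosan, at 236 to 307, than in fetal vehicle, at 315 to 380, without overlap. Maternal vehicle ran from 351 to 354 and maternal triclosan from 284 to 376. The part of array brightness in the direct differences was not tested. As a check of the tissue label, 8 other hypothalamic peptide genes (GHRH, AGRP, POMC, NPY, SST, GAL, PMCH and OXT) were well above background on all 13 arrays. Among 6 pituitary genes, PRL, CGA and LHB were above background on all 13 arrays and POU1F1, the pituitary lineage factor, on 5. Of the 13 arrays used, those numbered 1, 2 and 3 lay on slides 1, 2 and 3, with fetal vehicle 4 on slide 3. Fetal triclosan 4 lay alone on slide 5, which was scanned on another day. Slide 3 held no maternal vehicle array, since the one left out, replicate 3, lay on slide 4. Fetal triclosan 4 was the lowest of its group for all 8 other hypothalamic peptides. Fetal vehicle 4 was the highest of its group for 6 of those 8. The direct differences of GNRH1, TAC3, NPVF and OPRK1 are therefore given below without 1 or both of these arrays. Both were picked from these same data, and TAC3 went with the mean of the 8 peptides (Pearson's r of 0.88). Leaving them out is thus no independent check. Dixon's gap test of single arrays, run on the probes of the 6 genes in the fetal groups, gave 0 flags in 22 tests.

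None of the 6 genes passed the test for direct exposure (limma, Benjamini-Hochberg adjusted p below 0.05 over all probes), where 18.2% of the 13737 probes did. Among the 6, 4 had an unadjusted p below 0.05, against 4553 of all probes. The median difference of the 6 genes was 0.49 against -0.09 for all probes, with 5 of 6 above 0. Of the probes called, 937 were higher and 1561 lower; scaling to the array median instead of the 75th percentile turned this to 2175 and 946 and the median of all probes to 0.13, while all 6 genes kept their sign. For indirect exposure 0 of 6 passed and 0% of probes did in limma, with 1324 probes and 0 of the 6 genes at an unadjusted p below 0.05. The median of the 6 was 0.28 against 0.01 for all probes. The difference between the arms (direct minus indirect) likewise had 0 of 6 genes and 0% of probes called in limma, with 2013 probes and 1 of the 6, OPRK1, at an unadjusted p below 0.05.

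TAC1 was the only one of the 6 called in any comparison, first between routes of infusion. Between the vehicle groups 0 of 6 genes and 0% of probes passed in limma, with 450 probes and 1 of the 6, TAC1, at an unadjusted p below 0.05. Between the triclosan groups, which differ in dose as well as in route, 1 of 6 passed, TAC1, against 13.5% of probes. The probes called there were 1207 higher and 642 lower, and 648 and 1606 with median scaling, under which TAC1 stood at -0.93. With triclosan averaged over the arms 1 of 6 passed, again TAC1, against 9.34% of probes, and with route averaged over the treatments 1 of 6, TAC1, against 0.67% of probes. Both averages were added after the values had been seen. They reuse the same 13 arrays as the comparisons above and are no separate evidence.

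**Figure D1:**
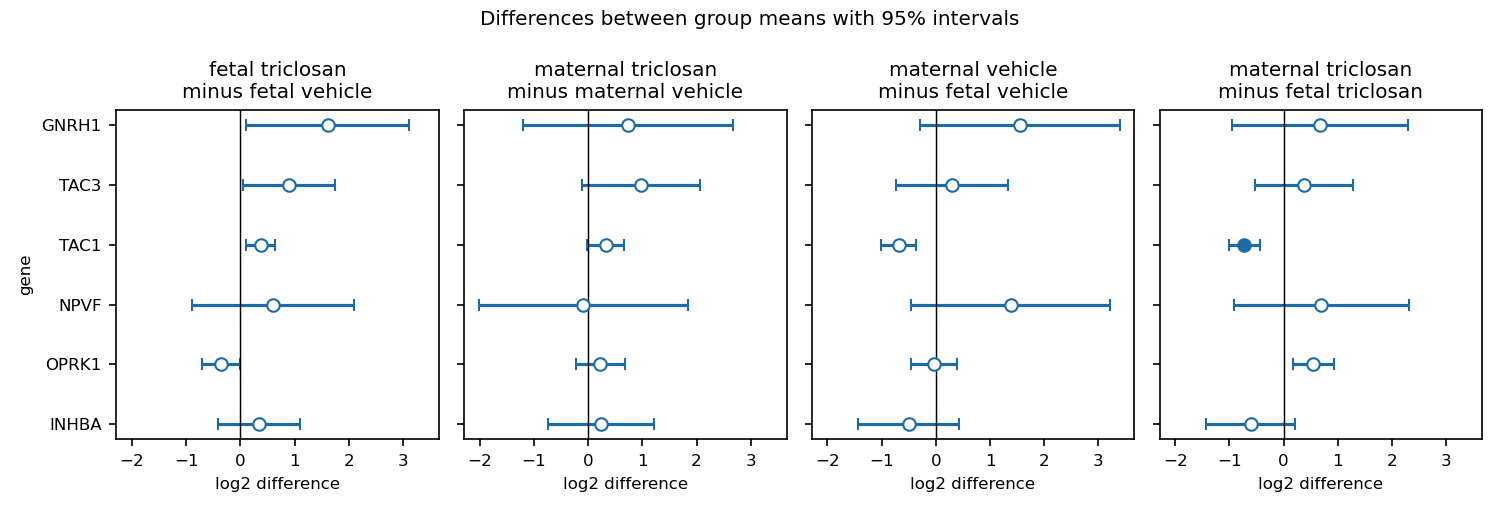
Differences between group means of the scaled log2 signal (x axis, log2 units) for the 6 genes (y axis) in 4 comparisons. Points are limma estimates on 13 arrays, bars their 95% intervals, filled points those with an adjusted p below 0.05; only TAC1 between the triclosan groups is filled, at -0.72, while its interval for the vehicle groups also lies below 0.

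GNRH1 was dim. Scaled log2 signals in the fetal vehicle group were -6.03, -8.48, -7.91 and -5.44, and those of replicates 2 and 3 were not well above background. Fetal triclosan arrays gave -5.60, -5.52, -3.79 and -6.51, all above background. The 2 groups overlapped, since fetal triclosan 4 lay below fetal vehicle 1 and 4. Their means, -5.36 ± 1.14 (SD, n = 4) and -6.97 ± 1.46 (SD, n = 4), differed by 1.61 ± 0.69 (SE), a 3.05-fold ratio with a 95% interval on the log2 scale of 0.11 to 3.11, and an adjusted p of 0.126 in limma. That size depended on how values with no measured level were treated. When dim values were set to their array's lowest above-background signal, an alternative chosen after seeing the data, the difference was 1.05. Normexp background correction with an offset of 50 brought the difference down to 0.67, with an adjusted p of 0.081. That offset is added to every signal, and GNRH1 signals in these 2 groups ran from 4.54 to 117 before scaling. The part of the offset in the smaller value was not tested. The other probe gave 2.15 ± 0.80 (SE), with an adjusted p of 0.086. Leaving out 1 array moved the difference in both directions: it was 1.996 without fetal triclosan 4 (adjusted p of 0.073) and 2.12 without fetal vehicle 4 (adjusted p of 0.055), but 1.09 without fetal triclosan 3, the brightest array of its group (adjusted p of 0.250), and 1.105 without fetal vehicle 2 (adjusted p of 0.274).

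In the indirect arm GNRH1 measured -5.61 and -5.23 in maternal vehicle and -4.34, -4.79 and -4.93 in maternal triclosan. The groups did not overlap, as was the case for 38.9% of all probes in this comparison of 2 with 3 arrays. The difference of 0.73 ± 0.89 (SE) had an adjusted p of 0.787, and its 95% interval ran from -1.21 to 2.67. The other probe gave 1.16 with an adjusted p of 0.709, whereas normexp correction, with its offset of 50, turned the direction, to -0.090. The order of group means was maternal triclosan, fetal triclosan, maternal vehicle and fetal vehicle, and neighbours in it overlapped. Within slides the direct difference was 0.42 on slide 1, 2.96 on slide 2 and 2.89 on slide 3, the dim fetal vehicle arrays being those of slides 2 and 3.

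TAC3, the neurokinin B gene, was above background on all 13 arrays. Its scaled log2 signals were -3.57, -3.98, -4.00 and -3.14 in fetal vehicle and -2.54, -1.78, -2.77 and -4.01 in fetal triclosan. Of the 4 fetal triclosan arrays 3 lay above every fetal vehicle array, and replicate 4 lay below them all. The direct difference was 0.90 ± 0.38 (SE), a 1.86-fold ratio with a 95% interval of 0.06 to 1.74 on the log2 scale and an adjusted p of 0.127. Without fetal triclosan 4, the lowest of its group but not flagged by the gap test, it was 1.31 with an adjusted p of 0.009. With slide as a block it was 1.28 with an adjusted p of 0.020, a fit in which fetal triclosan 4 has no array to be compared with. Without fetal vehicle 4 it was 1.08 with an adjusted p of 0.107, and without fetal triclosan 2, the brightest of its group, 0.57 with an adjusted p of 0.298. The authors' deposited value table, run through the same fit, gave 1.00 with an adjusted p of 0.045.

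Maternal vehicle arrays gave -3.20 and -3.54 for TAC3, and maternal triclosan arrays -2.35, -2.19 and -2.64. All 3 triclosan arrays lay above both vehicle arrays, a separation seen for 38.9% of all probes in this comparison. The indirect difference of 0.97 ± 0.50 (SE) had an adjusted p of 0.562, with a 95% interval of -0.12 to 2.06. The difference between the arms, -0.07, had a 95% interval of -1.45 to 1.30. Group means ran in the order maternal triclosan, fetal triclosan, maternal vehicle and fetal vehicle, as for GNRH1, and neighbours overlapped. Averaged over the arms the difference was 0.94 ± 0.31 (SE) with an adjusted p of 0.084, and 1.14 with an adjusted p of 0.010 without fetal triclosan 4. Within slides TAC3 differed by 1.04, 2.20 and 0.80 in the direct arm on slides 1, 2 and 3, and by 0.84 and 1.35 in the indirect arm on slides 1 and 2.

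**Figure D2:**
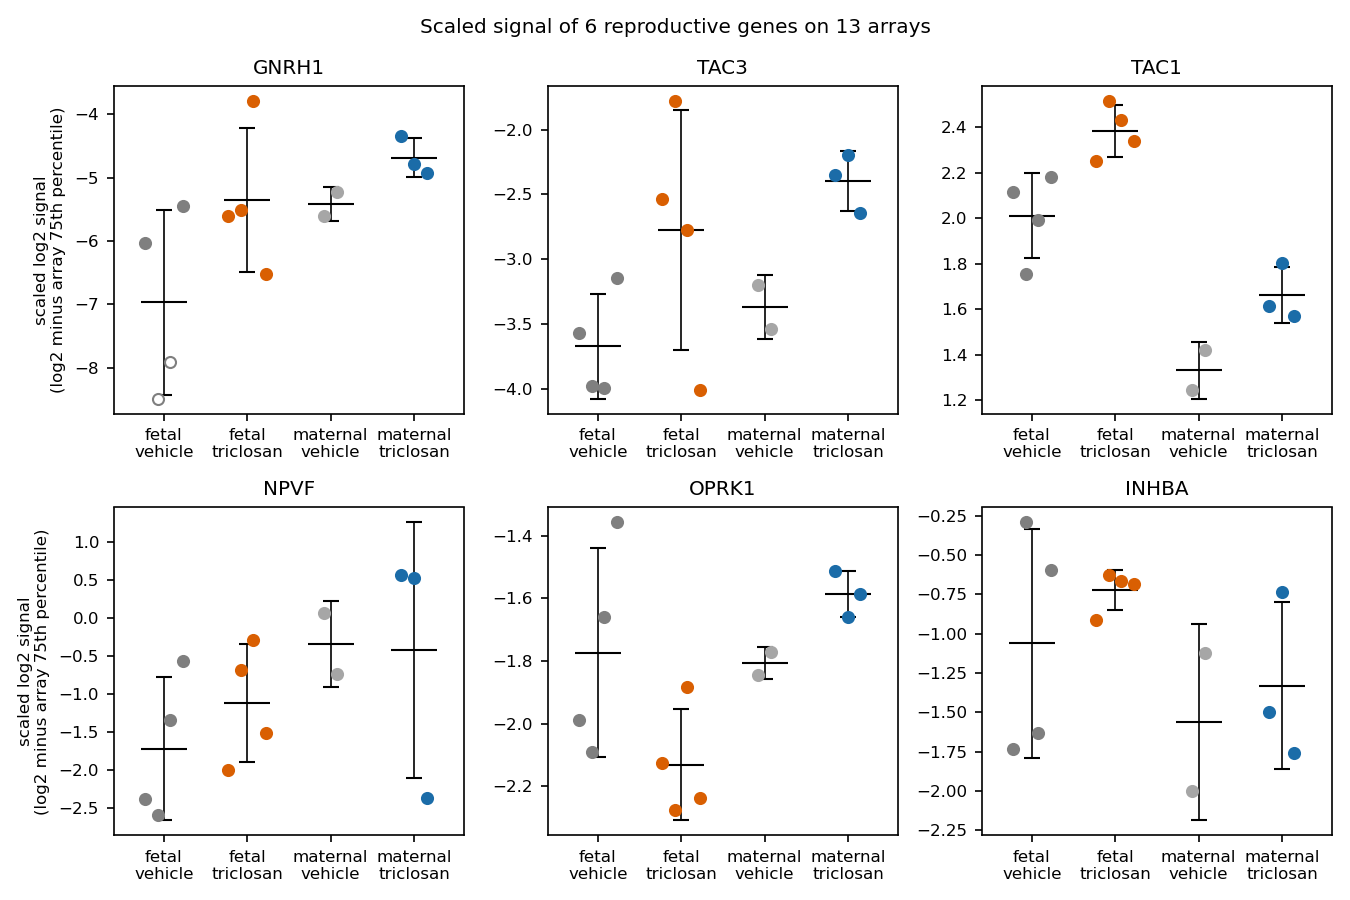
Scaled log2 signal (y axis, log2 of the signal minus the array's 75th percentile) of each gene's brighter probe on the 13 arrays, by group. Points are arrays in replicate order, open points were not well above background, and bars give the mean ± SD. For TAC1 the 4 groups lie in separate bands except that maternal triclosan 2 (1.80) lies just above fetal vehicle 2 (1.76). For TAC3 fetal triclosan 4 (-4.01) is the lowest of its group.

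TAC1, which encodes substance P and neurokinin A, separated the arms. Scaled log2 signals were 2.12, 1.76, 1.99 and 2.18 in fetal vehicle, 2.25, 2.52, 2.43 and 2.34 in fetal triclosan, 1.24 and 1.42 in maternal vehicle, and 1.61, 1.80 and 1.57 in maternal triclosan. Every array of the triclosan groups lay above every vehicle array of its own arm, as for 21.7% of all probes in the direct and 38.9% in the indirect arm, counted in either direction, and only maternal triclosan 2 and fetal vehicle 2 crossed between the arms. Group means ran in the order fetal triclosan, fetal vehicle, maternal triclosan and maternal vehicle. TAC1 was lower in maternal triclosan than in fetal triclosan by a difference of -0.72 ± 0.13 (SE), a 1.65-fold ratio, with an adjusted p of 0.011 and a 95% interval of -1.01 to -0.44. The groups did not overlap, which held for 25.7% of all probes. Its other probe, placed elsewhere in the message, gave -0.69 with an adjusted p of 0.026. That call ended when only these 2 groups entered the fit, at -0.72 with an adjusted p of 0.099, where 0 of all probes passed; the full fit takes its spread from all 13 arrays.

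A difference of like size stood between the vehicle groups. TAC1 was -0.68 ± 0.15 (SE) in maternal against fetal vehicle, with no overlap (17.1% of probes), an unadjusted limma p of 0.0007 and an adjusted p of 0.999, and -0.87 at the other probe. With route averaged over the treatments the value was -0.70 ± 0.10 (SE), a 1.63-fold ratio, with an adjusted p of 0.045 for both probes. That call was lost in 10 of the 13 fits that left out 1 array, where the value ran from -0.75 to -0.66 and the adjusted p from 0.016 to 0.212. Within slides, maternal minus fetal differences were -0.87 and -0.34 for vehicle on slides 1 and 2 and -0.64, -0.72 and -0.87 for triclosan on slides 1, 2 and 3, all below 0. What the route comparison holds beside the infused vessel, such as surgery or the ewes, cannot be told apart here.

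Against vehicle, TAC1 differed by 0.37 ± 0.12 (SE) in the direct arm, a 1.30-fold ratio, with a 95% interval of 0.11 to 0.64 and an adjusted p of 0.052. At the second probe the direct difference was also 0.37, with an adjusted p of 0.122, and there the groups did overlap. The size depended on the scaling: the direct difference at the first probe was 0.17 (adjusted p of 0.366) in the authors' deposited value table, 0.20 (adjusted p of 0.300) with quantile normalisation and 0.59 (adjusted p of 0.011) with median scaling. In the indirect arm the difference was 0.33 ± 0.16 (SE), with an adjusted p of 0.534. The second probe gave 0.55 there, with a 95% interval of 0.11 to 0.99. Its unadjusted limma p was 0.018 and its adjusted p 0.463. The difference between the arms was 0.04, with a 95% interval of -0.39 to 0.48. TAC1 averaged over the arms rose by 0.35 ± 0.10 (SE), with an adjusted p of 0.047, and by 0.46 with an adjusted p of 0.044 at the second probe. This call was lost in 11 of the 13 fits without 1 array, with values from 0.31 to 0.40 and adjusted p from 0.036 to 0.208. Brighter probes as a class were shifted in the direct arm: with probes cut into 10 equal classes by brightness, the median difference was 0.11 in the class of TAC1, against -0.27 in that of GNRH1 and -0.28 in that of TAC3. The part of this shift in the TAC1 difference was not tested.

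**Figure D3:**
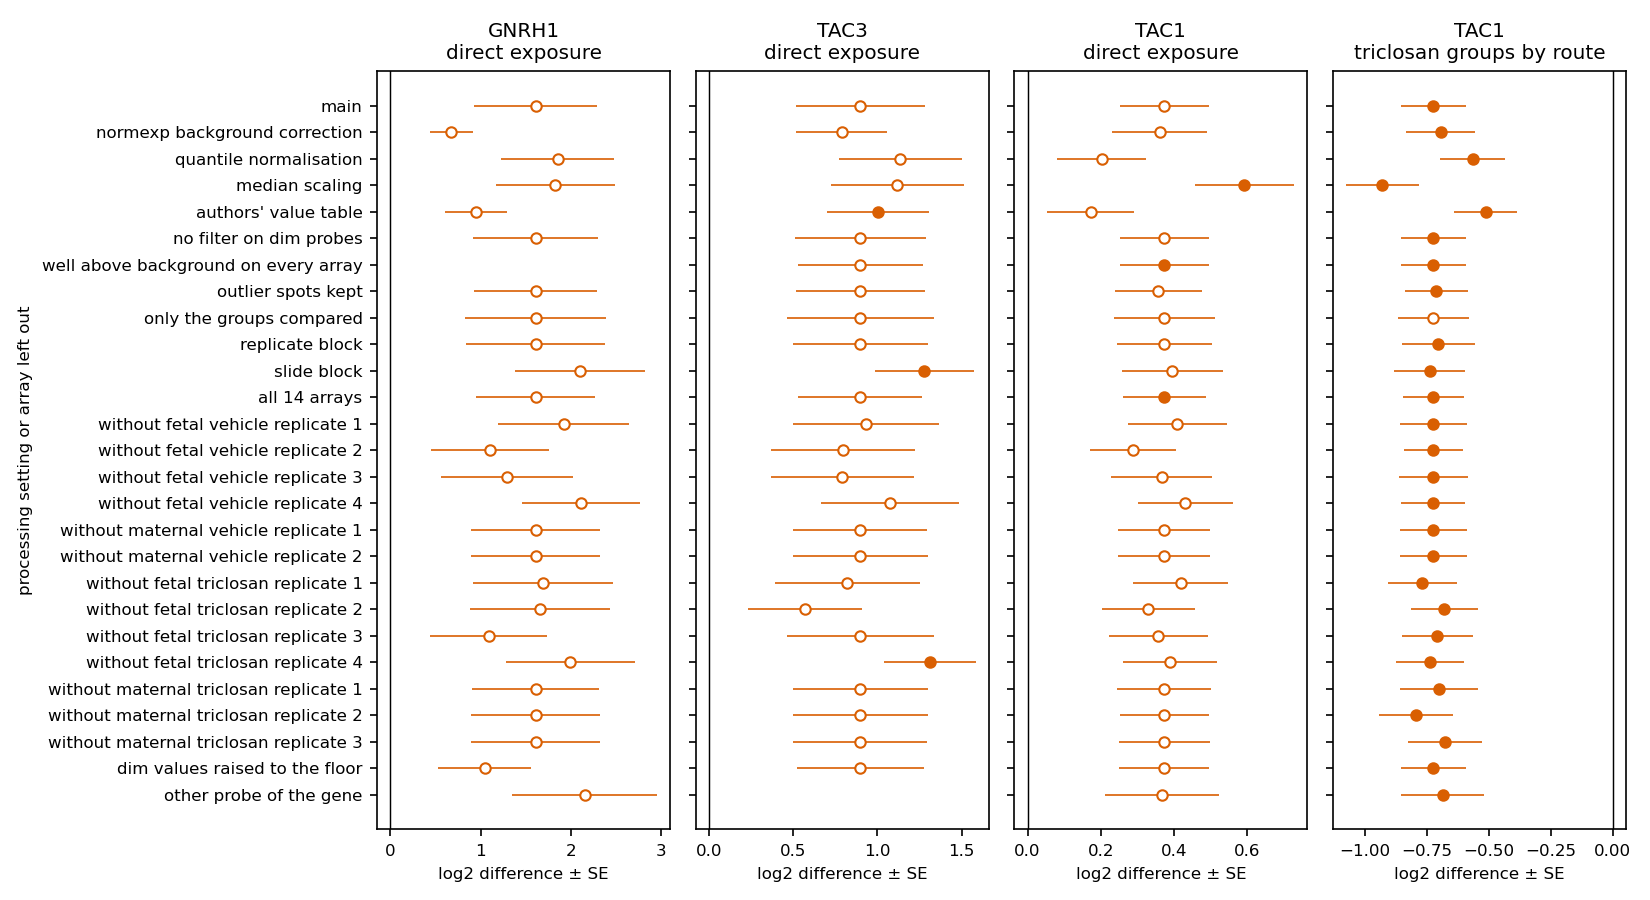
Log2 difference ± SE (x axis) for GNRH1, TAC3 and TAC1 in the direct arm and for TAC1 between the triclosan groups, under each processing alternative and with each array left out (y axis). Filled points have an adjusted p below 0.05; all 4 keep their sign throughout, TAC3 is filled in 3 settings, one of them without fetal triclosan 4 at 1.31, and TAC1 between the triclosan groups is open only where the fit held those groups alone.

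NPVF, the RFamide-related peptide gene, had its widest spread among the maternal triclosan arrays. Its scaled log2 signals were -2.37, -2.58, -1.34 and -0.57 in fetal vehicle and -1.99, -0.68, -0.28 and -1.51 in fetal triclosan. Maternal vehicle arrays gave 0.06 and -0.74, and maternal triclosan arrays 0.57, 0.52 and -2.36. Maternal triclosan 3 was thus near the lowest value of all 13 arrays while the other arrays of its group were the highest. The direct difference was 0.60 ± 0.68 (SE) with an adjusted p of 0.578, and the indirect one -0.09 ± 0.88 (SE) with an adjusted p of 0.981; the second probe gave 0.62 and -0.05. Single arrays moved the direct value between 0.31 (without fetal vehicle 2) and 0.98 (without fetal vehicle 4), with adjusted p of 0.807 and 0.384. Without maternal triclosan 3 the indirect difference was 0.88, with an adjusted p of 0.670. Intervals of -0.90 to 2.10 in the direct and -2.02 to 1.85 in the indirect arm leave room for a change in either direction. All neighbours in the order of group means overlapped.

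OPRK1, the kappa opioid receptor of dynorphin, was the only one of the 6 with a direct difference below 0. Fetal vehicle arrays gave -1.99, -2.09, -1.66 and -1.36, and fetal triclosan arrays -2.13, -2.28, -1.88 and -2.24. The groups overlapped, with fetal triclosan 3 above fetal vehicle 1 and 2. The difference was -0.36 ± 0.16 (SE), with a 95% interval of -0.71 to -0.01 and an adjusted p of 0.143, and the second probe also gave -0.36 (adjusted p of 0.105). It was -0.22 (adjusted p of 0.332) without fetal vehicle 4, the highest array of its group, and -0.13 (adjusted p of 0.563) in the authors' deposited value table. OPRK1 measured -1.84 and -1.77 in maternal vehicle and -1.51, -1.66 and -1.59 in maternal triclosan, an indirect difference of 0.22 ± 0.21 (SE) with an adjusted p of 0.720; its second probe gave -0.03. The difference between the arms, -0.58 ± 0.26 (SE), had an unadjusted limma p of 0.048 and an adjusted p of 0.337, and the second probe gave -0.32.

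Between the triclosan groups every maternal array lay above every fetal array for OPRK1, a separation that 25.7% of all probes showed in one direction or the other. Its group means ran in the order maternal triclosan, fetal vehicle, maternal vehicle and fetal triclosan, and only fetal triclosan did not overlap its neighbour. The difference of 0.55 ± 0.17 (SE) had an adjusted p of 0.058, the second probe gave 0.47 with an adjusted p of 0.064, and the first passed the threshold under 5 of the alternatives and leave-one-out fits, among them slide as a block (0.51, adjusted p of 0.046) and without fetal triclosan 3 (0.63, adjusted p of 0.036). The vehicle groups differed by -0.03, with a 95% interval of -0.46 to 0.40. OPRK1's class of brightness had a median difference of 0.14 between the triclosan groups and of -0.14 in the direct arm, so the class as a whole lay on the same side; the part of that shift was not tested.

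INHBA, the activin beta A gene, was spread most widely in fetal vehicle and least in fetal triclosan. Values were -1.73, -0.29, -1.63 and -0.60 in fetal vehicle, -0.91, -0.63, -0.67 and -0.68 in fetal triclosan, -2.004 and -1.12 in maternal vehicle, and -1.50, -0.73 and -1.76 in maternal triclosan. All the groups of each arm overlapped, and so did all neighbours in the order of means, from fetal triclosan through fetal vehicle and maternal triclosan to maternal vehicle. The fetal triclosan arrays lay within 0.29 of each other, the fetal vehicle arrays within 1.44, and the difference in spread was not tested. Differences of 0.34 ± 0.35 (SE) in the direct and 0.23 ± 0.45 (SE) in the indirect arm had adjusted p of 0.532 and 0.877, and the second probe gave 0.30 and 0.34. Between the triclosan groups INHBA measured -0.61 ± 0.37 (SE), with an adjusted p of 0.291, and -0.47 at the second probe.

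The levels of TAC3 across the 13 arrays lay closest to those of other hypothalamic peptides. Of the 900 other named genes, somatostatin (SST) was nearest, with Pearson's r of 0.94 over the 13 arrays and 0.95 after group means were removed, followed by TIMP1, an inhibitor of matrix proteases (0.90 and 0.84), and the appetite peptide NPY (0.88 and 0.85). These arrays share slides and scaling, and the values are a description. With the mean of the 8 other peptide genes, r was 0.88 for TAC3, 0.63 for GNRH1, 0.34 for TAC1, 0.23 for INHBA, 0.22 for NPVF and 0.16 for OPRK1.

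GNRH1 was nearest to FZD2, a Wnt receptor (0.82), FCER1G, a signalling chain of immune cells (0.82), and PTGS1, a cyclooxygenase (0.76), with Spearman's rho of 0.53, 0.54 and 0.59. TAC1 was nearest to HACD1 (0.85), the lysosomal transporter SLC17A5 (0.83) and the proteasome subunit PSMB7 (0.83); for the last 2 the likeness came from the groups, since r was 0.13 and -0.03 once group means were removed. NPVF lay nearest to the kallikrein KLK1 (0.77), the transcription factor WT1 (0.71) and the netrin NTN4 (0.71). OPRK1 had ACSS2 (0.87), the activin receptor ACVR1B (0.86) and PUS1 (0.84) as its nearest, and INHBA had DYNLT3 (0.79), PSMB7 (0.78) and SLC17A5 (0.77). Among the 6 themselves r over the 13 arrays was highest for GNRH1 with TAC3, at 0.70. After group means were removed that pair stood at 0.49, below GNRH1 with TAC1 (0.66) and GNRH1 with OPRK1 (0.64).

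**Figure D4:**
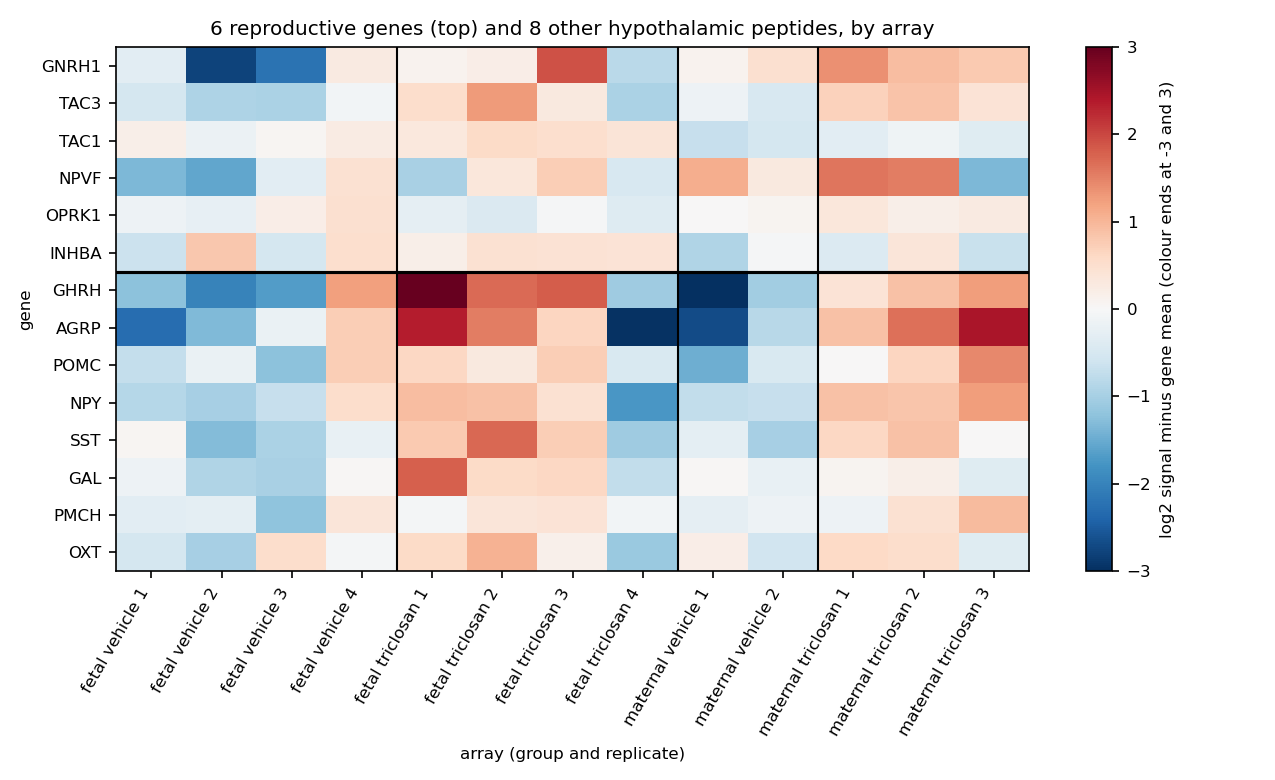
Scaled log2 signal minus the gene's mean over the 13 arrays (colour, log2 units) for the 6 genes and 8 other hypothalamic peptide genes (rows) on each array (columns, grouped by treatment). Fetal triclosan 4 is blue for GNRH1, TAC3 and nearly all the other peptides, being the lowest of its group for 8 of 8, while fetal vehicle 4 is the highest of its group for 6 of 8.

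The same arrays stood out in the other peptides as in TAC3 and GNRH1. Fetal triclosan 4, which gave the lowest value of its group for these 2 genes, also did so for 8 of the 8 other peptides. Fetal vehicle 4 was the highest of its group for 5 of the 6 reproductive genes, all but INHBA, and for 6 of the 8 others. In the direct arm the 8 others had a median difference of 0.86 with 0 called, where 937 of 13737 probes were called higher. Without fetal triclosan 4 the median was 1.38 with 4 called higher (GAL, GHRH, NPY and SST), beside 1141 of 13728 probes. With slide as a block 5 of the 8 were called higher, AGRP being the fifth, at a median of 1.39, beside 1108 of 13737 probes. Without fetal vehicle 4 only GHRH was called, at a median of 1.13, beside 683 of 13671 probes called higher. In the indirect arm the median of the 8 others was 1.40 with 0 called, beside 0% of all probes. In tissue pieces like these, fewer cells of a type and less RNA per cell cannot be told apart, and the part of peptide-rich tissue in the TAC3 and GNRH1 values was not tested.

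Markers of some other cells differed between some of the groups as well. The mean scaled log2 level of 3 red blood cell genes (HBB, AHSP and CA1) ran from -2.73 to -2.34 in fetal vehicle and from -2.03 to -0.87 in fetal triclosan, and from -3.66 to -2.73 and -2.22 to -1.85 in the maternal groups, with their summed level at 4.28 to 12.5, 11.8 to 23.4, 3.28 to 8.90 and 10.5 to 26.8. Of these 3 genes 1 was called higher in the direct arm, where 937 of 13737 probes were. The mean of 4 endothelial genes (KDR, FLT1, PECAM1 and TIE1) ran from -3.60 to -3.16 in fetal vehicle and from -4.32 to -3.99 in fetal triclosan. Their summed level overlapped there, at 0.65 to 0.92 and 0.50 to 0.72. In the maternal groups the mean overlapped, at -3.355 to -3.297 under vehicle and -3.496 to -3.285 under triclosan. Of the 4 genes 2 fell in the direct arm, where 1561 of 13737 probes were called lower. The mean of 4 astrocyte genes (GFAP, AQP4, FGFR3 and EAAT2) was lower under triclosan without overlap in both arms, at 0.036 to 0.12 in fetal vehicle against -1.16 to -0.20 in fetal triclosan, and 0.39 to 0.40 in maternal vehicle against -0.52 to 0.13 in maternal triclosan. Their summed level overlapped (61.6 to 77.3 and 64.2 to 91.3 in the direct arm, 61.4 to 70.1 and 67.4 to 77.7 in the indirect), and 1 of the 4, the growth factor receptor FGFR3, fell in the direct arm, by 1.61 ± 0.35 (SE) with an adjusted p of 0.011. The mean of 2 microglial genes (ITGAM and FCER1G) overlapped in the direct arm, where 1 of the 2 was called lower. It was lower under triclosan in the indirect arm, at -2.15 to -2.13 in maternal vehicle and -2.998 to -2.45 in maternal triclosan. Their summed level overlapped in both arms (0.45 to 0.71 and 0.63 to 0.81 in the direct, 0.74 to 0.77 and 0.64 to 0.78 in the indirect). The mean of 2 choroid plexus genes overlapped in both arms, at -4.993 to -3.618 in fetal vehicle and -3.998 to -2.585 in fetal triclosan. Their summed level ran from 0.51 to 2.58 and from 0.25 to 10.45 there, highest on fetal triclosan 3, also the brightest of its group for GNRH1. The 6 pituitary genes overlapped between all groups, at -4.57 to -2.88 in fetal vehicle and -4.16 to -3.94 in fetal triclosan. Of 9 neuron genes looked for, 0 had a probe that carried their name. The part of all these markers in the results for the 6 genes was not tested.

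Around the 6 genes, a list of 80 genes of the reproductive axis had 38 with a probe that carried their name and 34 past the background filter. Only 1556 of the 15008 probes carried a gene symbol, so genes not found may have probes without a name. For direct exposure 0 of the 34 rose and 2 fell, both from the activin and inhibin list, with a median difference of -0.03 beside -0.09 for all probes. Of all 13737 probes 18.2% were called in this comparison, 937 higher and 1561 lower. ACVR1 fell by 0.89 ± 0.17 (SE), with an adjusted p of 0.007, and ACVR1B by 0.62 ± 0.19 (SE), with an adjusted p of 0.046. ACVR1B passed at 1 of its 2 probes, and SMAD7, of the same list, passed at 1 of 2, not the one standing for it. ACVR1 also fell, by 0.80 with an adjusted p of 0.012, when triclosan was averaged over the arms. ACVR1B, a type I receptor through which activin signals, was no longer called with only the groups of the arm in the fit, nor under normexp correction, quantile or median scaling, no filter on dim probes or the authors' table, nor in 10 of the 13 fits without 1 array; ACVR1 was called in all of these. For indirect exposure 0 of 34 rose or fell, where 0% of all probes were called, with a median of 0.12 beside 0.01 for all probes.

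Within the activin and inhibin list 11 of 17 genes were measured. FST, which encodes the activin antagonist follistatin, gave 0.37 ± 0.33 (SE) in the direct arm and INHA, the inhibin alpha subunit, 0.26 ± 0.25 (SE), and neither passed. Of the other peptides of the list, 3 of 12 were measured, with 0 called: the direct difference was 1.06 ± 0.44 (SE) for galanin (GAL, adjusted p of 0.116) and 0.65 ± 0.45 (SE) for POMC (adjusted p of 0.348). Of 12 receptors for these peptides only GNRHR, the GnRH receptor, had a probe that carried its name, and it did not pass the background filter. Receptors and enzymes of the sex steroids had 7 of 17 measured and 0 called, with direct differences of 0.70 ± 0.43 (SE) for the oestrogen receptor gene ESR1 and -0.51 ± 0.40 (SE) for ESR2; without fetal triclosan 4, ESR1 passed.

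Gonadotropin and prolactin genes, made in the pituitary, and their receptors had 6 of 7 measured and 0 called. The largest direct differences were -0.49 ± 1.23 (SE) for FSHB, well above background on only 6 arrays, and 0.21 ± 0.59 (SE) for LHCGR. Metabolic signals that reach the reproductive axis had 7 of 15 measured and 0 called, led by the leptin receptor LEPR at 0.51 ± 0.48 (SE) and the IGF-1 receptor IGF1R at -0.45 ± 0.20 (SE, adjusted p of 0.147). No probe carried the symbol of kisspeptin, dynorphin or the neurokinin B receptor, so these genes were not analysed here.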

How the data were processed

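Spot intensity was read from the authors' scanner output, made with Agilent Feature Extraction 10.1.1.1 per the file headers. The processed signal is background-subtracted within the array and was not scaled between arrays. The authors' deposited value table holds log2 values; its scaling is unknown, and it served as an alternative. The members, gene lists and tests were chosen with earlier results of these data known.

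Outlier spots were removed, log2 of the processed signal minus the array's 75th percentile over non-control spots was taken, and spots of a probe were averaged. Probes well above background on at least 3 arrays were kept (13737 probes, 249 missing values). limma 3.58.1 (R 4.3.3) fitted a mean per group over 13 arrays (9 residual and 2.36 prior degrees of freedom). Two-sided p-values were adjusted with the Benjamini-Hochberg method, with a threshold of 0.05. Probes were tested, and the fit was checked on simulated data. The brightest probe stands for a gene, and the other probe's direct and indirect differences are given beside it. From the lists, genes called in any comparison and the 2 largest direct differences per list are named, and for each gene the 3 most alike. Same-numbered arrays did not deviate together throughout (r from -0.17 to 0.46), so no pairing was used; in the direct arm the 3 pairs that shared a slide had r of 0.13, 0.12 and 0.27 and the pair on different slides -0.17, and slide was fitted as an alternative. Tables and figures used Python 3.11.15 with pandas 2.3.3 and matplotlib 3.10.9. The number of arrays limits the precision. A gene of the pituitary list is not reported here.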

Additional observations from a re-analysis of the deposited data

How the results depend on the processing

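In the direct arm 0 of the 6 genes passed, but 1 of 6 did with median scaling, with a filter that asked for every array to be above background and with all 14 arrays (TAC1 in each), and with the authors' value table or a slide block (TAC3 in both); the cause was not tested. Without single arrays the count was 0 to 1. All 6 direct differences kept their sign under every alternative and every array left out.

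Between the triclosan groups 1 of 6 passed. The count was 2 with the strict background filter, a slide block or all 14 arrays (OPRK1 joining TAC1), 0 with only the groups compared, and 1 to 2 without single arrays. With triclosan averaged over the arms 1 of 6 passed, 0 with quantile normalisation, no filter on dim probes or the replicate block, 2 with all 14 arrays and 0 to 2 without single arrays; with the authors' table or the slide block the 1 gene was TAC3, not TAC1. With route averaged 1 of 6 passed, 0 with quantile normalisation, no filter or the replicate block and 0 to 1 without single arrays. In the other comparisons 0 of 6 passed in every fit.

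Sizes moved more: over the processing alternatives direct GNRH1 ran from 0.67 to 2.15, TAC1 from 0.17 to 0.59 and OPRK1 from -0.36 to -0.13, and without single arrays GNRH1 ran from 1.09 to 2.12, TAC3 from 0.57 to 1.31, NPVF from 0.31 to 0.98 and INHBA from 0.12 to 0.60.

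Some directions turned, none of them for a value that had passed. Indirect GNRH1, 0.73, was -0.090 with normexp, and indirect OPRK1, 0.22, was -0.032 at its other probe; without single arrays indirect NPVF, -0.09, ran from -0.58 to 0.88 and INHBA, 0.23, from -0.21 to 0.67. The difference between the arms for TAC3 was 0.19 with normexp, 0.15 with quantile, 0.11 with median scaling, 0.10 with the authors' table and 0.24 with the slide block, and ran from -0.40 to 0.34 without single arrays. For TAC1 it was -0.017 with normexp, -0.13 with quantile, -0.16 with the authors' table and -0.18 at the other probe, and ran from -0.044 to 0.13. OPRK1 between the vehicle groups was 0.041 with normexp, 0.10 with the replicate block, 0.13 with the slide block and 0.15 at the other probe, and ran from -0.14 to 0.11.

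Counts over all probes moved more. Direct exposure had 2498 called, 1275 with only the groups compared and 1226 to 2956 without single arrays (1226 without fetal vehicle 3). Indirect exposure had 0, 12 with all 14 arrays and 0 to 2 without single arrays. The difference between the arms had 0, 1 with quantile normalisation, 4 with all 14 arrays and 0 to 12 without single arrays, and the vehicle groups 0, and 0 to 2. The triclosan groups had 1849, 955 with normexp, 959 with quantile, 1016 with the authors' table, 0 with only the groups compared and 335 to 2538 without single arrays. Triclosan averaged had 1283, 2609 with the slide block, 2360 with all 14 arrays and 0 to 2217 without single arrays. Route averaged had 92, 244 with normexp, 7 with quantile, 13 with median scaling, 0 with no filter, 273 with the strict filter, 46 with the replicate block, 891 with the slide block, 1098 with all 14 arrays, 218 with dim values raised and 0 to 501 without single arrays. All 14 arrays include the mixture, which shrinks the spread of maternal vehicle.

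The replicate block changed no other call. The small groups, above all maternal vehicle with n = 2, limit what these data can detect, and GNRH1 lies near background.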
